A study of Mus musculus with 24 samples.

Results

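The genes described here are the 10 integrin subunits that line the basal side of epithelial cells: the α subunit genes Itga2, Itga3, Itga5, Itga6 and Itgav and the β subunit genes Itgb1, Itgb4, Itgb5, Itgb6 and Itgb8. They were taken by name from the 45706 genes of the count tables, and all 10 were found. Integrins are receptors made of 1 α and 1 β subunit that tie a cell to its extracellular matrix. Integrin α6β4 binds laminin and anchors the keratin network in hemidesmosomes, α3β1 binds laminin and α2β1 binds collagen, whereas α5β1 and the αv integrins bind fibronectin and other ligands that carry the RGD motif. In the intestine these contacts hold the epithelium on its basement membrane, and αvβ6 and αvβ8 also activate latent TGFβ.

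RNA was sequenced from mouse organoids, which are epithelial cultures grown from crypts in a matrix gel, from small intestine (SI) or colon (COL). All were of strain C57BL/6N and carried Villin::CreERT2, a tamoxifen-dependent Cre recombinase under a promoter active in intestinal epithelium, together with 1 of 3 sets of heterozygous knock-in alleles. BraffloxV600E/+ gives the constitutively active kinase BRAFV600E after recombination (BRAF organoids), Trp53LSL-R172H/+ gives the mutant tumour suppressor p53R172H (p53 organoids), and BraffloxV600E/+;Trp53LSL-R172H/+ gives both (BRAFp53 organoids). Induced organoids (on) received 4-hydroxytamoxifen (4-HT) for 24 h, at 3.5 µM in COL and 0.5 µM in SI, and non-induced organoids (off) received ethanol. RNA was isolated 3 days after recombination in COL and 8 days after it in SI. Each of the 12 groups held 2 libraries, and the donor mice were adult, with no age given in the sources used here. For each tissue and set of alleles there was 1 donor culture. The p-values therefore measure the spread between libraries of a culture and not between animals, and genotype and culture cannot be told apart. Likewise, tissue cannot be told apart from 4-HT dose, day of isolation and medium, as the COL medium also held Wnt3a and an inhibitor of GSK3.

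The COL libraries held 51.2 to 78.2 M counts (M stands for 1e6) and the SI libraries 44.4 to 68.2 M. Trp53 was higher in both on than in both off libraries of all 4 cultures with Trp53LSL-R172H, for instance 447 and 449 against 222 and 244 CPM (counts per 1e6 counts, scaled) in COL p53. Summed epithelial markers reached 9338 to 22410 CPM in off and 9531 to 35140 CPM in on libraries, whereas 9 stromal, 5 endothelial and 6 immune markers each summed to at most 3.41, 1.59 and 9.82 CPM. The library SI BRAF on replicate 1 stood apart, with 15.4 CPM of Xist, which is transcribed from the inactive X chromosome, against at most 0.437 CPM in the other 3 libraries of that culture, at most 0.044 CPM in COL and 104 to 150 CPM in the SI p53 and SI BRAFp53 cultures. Where these reads came from, and whether that library holds cells of another culture, was not tested, and the tests of members and of most named partner genes in SI BRAF are therefore also given without it. The Y-linked Ddx3y was at 51.2 to 71.7 CPM in COL and 30.5 to 36.2 CPM in SI BRAF, against at most 0.0582 CPM in SI p53 and SI BRAFp53. Kdm5d and Uty, also Y-linked, were likewise at 10.1 CPM or more in COL and SI BRAF and at most 0.0363 CPM in the other SI cultures. A further Y-linked gene, Eif2s3y, differed among the COL cultures, with at most 0.128 CPM in BRAF, 6.33 to 11.3 CPM in BRAFp53 and 68.2 to 80.9 CPM in p53. The sex of the donors by these genes thus differed between cultures, it cannot be told apart from genotype in SI, and it differed between COL and 2 of the 3 SI cultures. The COL BRAF culture held 35.8 to 54.8 CPM of Gata4, a small intestinal transcription factor, against at most 2.95 CPM in the other COL cultures and at least 72.9 CPM in SI. Of the other 4 small intestinal markers, Mttp was also higher in COL BRAF (87.3 to 153 CPM) than in the other COL cultures (at most 27.9 CPM), Lct (at most 0.297 CPM) and Rbp2 (21.3 to 82.6 CPM, against 14.9 to 57.3 CPM) overlapped with them, and Lyz1 was lower (255 to 314 CPM, against 782 to 1900 CPM). Because of Gata4 and Mttp, the comparison of the tissues is also given without that culture.

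In the genome build GRCm38, Itga6 lies on chromosome 2 (71745616 to 71858416, plus strand), Itgb4 on chromosome 11 (115974709 to 116008412, plus), Itga3 on chromosome 11 (95044474 to 95076801, minus), Itga2 on chromosome 13 (114833081 to 114932100, minus) and Itgb1 on chromosome 8 (128685654 to 128733200, plus). Itgav lies on chromosome 2 (83724397 to 83806916, plus), Itga5 on chromosome 15 (103344286 to 103366763, minus), Itgb5 on chromosome 16 (33829665 to 33949338, plus), Itgb6 on chromosome 2 (60598292 to 60722643, minus) and Itgb8 on chromosome 12 (119158022 to 119238802, minus). These positions span the whole gene, introns included. Exons of Itgav overlap those of Gm13684 on the opposite strand by 634 bp, and exons of Itgb4 overlap those of B230344G16Rik by 537 bp. Since the use of strand in counting is not given in the sources used here, reads of these pairs cannot be told apart, but the antisense genes were counted at most 98 and 23 times in any library.

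On induction of BRAFV600E, alone or with p53R172H, between 4 and 7 of the integrin transcripts tested rose in each culture of both tissues, and no member was called lower. Single libraries carried part of these counts, as 1 member was called in SI BRAFp53 without on replicate 2 or off replicate 2 (4.95% and 5.72% of all genes), 3 without on replicate 1 (7.38% of all genes), and 4 in COL BRAF without on replicate 1 or off replicate 1 (9.59% and 10.8% of all genes). The share of all genes called thus fell in these fits as well. In COL BRAF organoids 7 of 10 members rose. Of all tested genes 19.9% were called there at an adjusted p under 0.05, 10.3% higher and 9.61% lower. This adjusted p is that of edgeR's quasi-likelihood test after Benjamini-Hochberg adjustment over all genes tested, here and throughout. In COL BRAFp53 organoids 4 of 10 rose (all genes 17.7%, with 9.95% higher and 7.76% lower), in SI BRAF organoids 6 of 9 (31.7%, with 17.5% higher and 14.2% lower) and in SI BRAFp53 organoids 5 of 9 (11.5%, with 6.98% higher and 4.53% lower). Itgb8 was filtered out in SI for low counts. Fewer cells of a type and less RNA per cell cannot be told apart in such bulk samples. The median log2 fold change of the tested members was 0.86, 0.60, 0.80 and 0.57 in these 4 comparisons, with -0.01, -0.04, -0.06 and -0.03 for all tested genes. Epithelial markers moved in the same comparisons, with 7, 7, 7 and 5 of 10 called higher and medians of 0.73, 0.70, 0.72 and 0.36. Their summed level was 12760 and 12070 CPM off and 29920 and 28020 CPM on in COL BRAF, 12870 and 12390 CPM off and 35140 and 27770 CPM on in COL BRAFp53, 10900 and 10780 CPM off and 19420 and 21290 CPM on in SI BRAF, and 9895 and 9338 CPM off and 13810 and 14150 CPM on in SI BRAFp53. In COL p53 (22410 and 22390 CPM off, 31840 and 22240 CPM on) the states overlapped. The SI BRAF count was 7 of 10 also without on replicate 1. Small intestinal markers moved too. In SI BRAF 3 of 5 rose (Lct, Mttp and Rbp2, of enterocytes) and Lyz1, of Paneth cells, fell (-1.58, adjusted p = 0.000115), also without on replicate 1 (-1.85, adjusted p = 7.23e-05), with a summed level of 2119 and 1787 CPM off and 7398 and 8606 CPM on. In SI BRAFp53 Mttp and Rbp2 rose and Lct fell (-2.43, adjusted p = 2.07e-06), with 4462 and 4164 CPM off and 9270 and 10360 CPM on. In COL the colon marker Car1 rose in BRAF (1.59, adjusted p = 0.00161) and BRAFp53 (0.94, adjusted p = 0.0287), the colon marker sum being 1505 and 1546 CPM off and 5524 and 3546 CPM on in BRAF and 3841 and 4814 CPM off and 10690 and 5842 CPM on in BRAFp53. Rbp2 rose in both COL cultures (1.82 and 1.05), and Mttp fell in COL BRAFp53 (-1.39). The part of these markers in the integrin results was not tested. Itga2, Itga3, Itgav and Itgb4 rose in all 4, Itga5 in both SI comparisons, Itga6, Itgb1 and Itgb6 in COL BRAF and Itgb5 in SI BRAF. Both on libraries lay above both off libraries for 10 of 10 members in COL BRAF, where 29.3% of all genes did so, and for 9 of 10 in COL BRAFp53 (27.6% of all genes), where Itgb8 lay below instead (29.4% of all genes). The same held for 7 of 9 members in SI BRAF and 7 of 9 in SI BRAFp53 (30.3% and 26.6% of all genes).

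**Figure D1:**
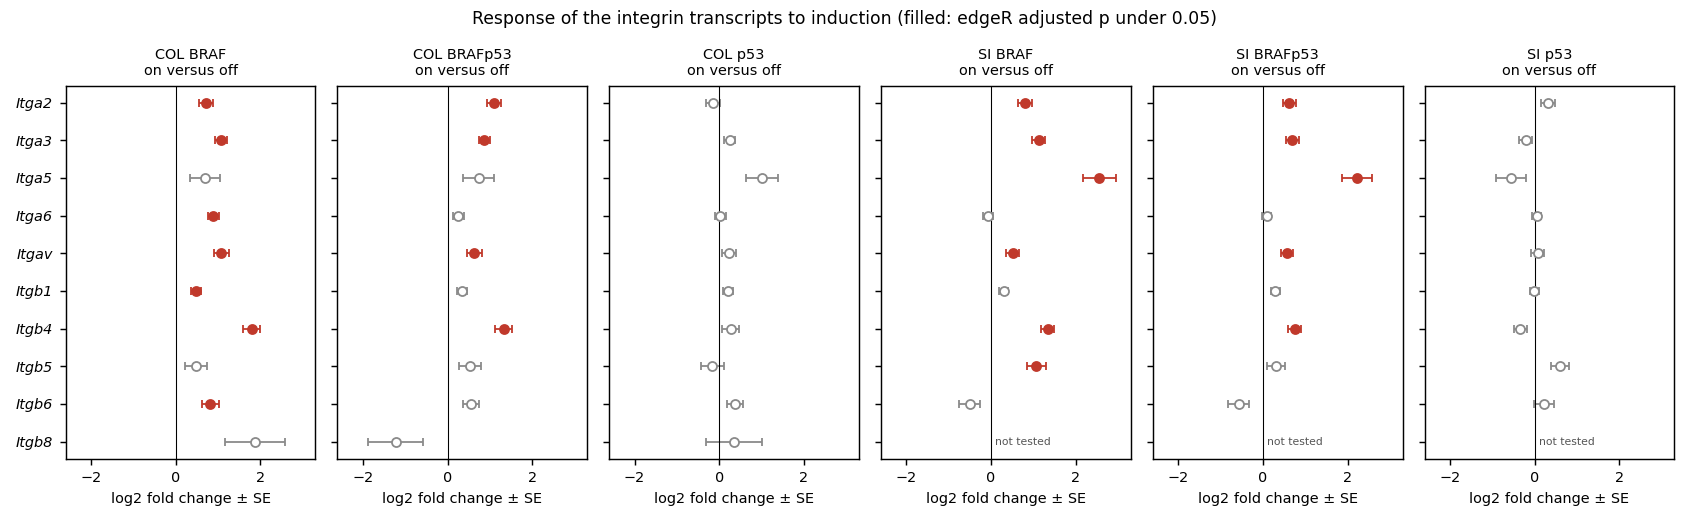
Log2 fold change of each integrin transcript (x axis, with SE) in on against off organoids of each culture, with 2 libraries per state. Filled points passed an adjusted p under 0.05. Itga2, Itga3, Itgav and Itgb4 are filled in all 4 cultures with the Braf allele, Itga5 in both SI cultures with it, and no point is filled in the p53 cultures.

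Itgb4, the β subunit found only in α6β4, changed most among the members called in COL. Its level was 110.5 and 118 CPM in COL BRAF off and 389 and 403 CPM on, a log2 fold change of 1.79 ± 0.20 (SE, adjusted p = 0.000146). The COL BRAFp53 libraries held 116 and 135 CPM off and 350.0 and 280 CPM on (1.33 ± 0.20, adjusted p = 0.00103). In SI BRAF it was 67.5 and 67.6 CPM off and 141 and 200.1 CPM on (1.33 ± 0.15, adjusted p = 2.32e-05). On and off libraries were well apart in each of these cultures, by more than the spread within either state. In SI BRAFp53 the levels were 67.7 and 57.9 CPM off and 99.5 and 112 CPM on (0.75 ± 0.15, adjusted p = 0.00513). This last call was lost without on replicate 2 (0.67, adjusted p = 0.0541) and without off replicate 2 (0.65, adjusted p = 0.0636). Without SI BRAF on replicate 1 the log2 fold change in SI BRAF was 1.59 (adjusted p = 1.08e-06).

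Itga6, the α partner of β4, did not follow it in every culture. It rose in COL BRAF, from 139 and 172 CPM off to 293 and 284 CPM on (0.89 ± 0.13, adjusted p = 0.000769). In COL BRAFp53, where the off libraries already held 239 and 222 CPM, the on libraries held 305 and 244 CPM (0.25 ± 0.13, adjusted p = 0.216). In COL p53 the 4 libraries lay between 149 and 164 CPM, and the higher off level of the BRAFp53 culture is also that of another donor. In SI all 12 libraries lay between 79.6 and 103 CPM, with a log2 fold change of -0.08 ± 0.11 in BRAF and 0.09 ± 0.11 in BRAFp53 (adjusted p = 0.654 and 0.695), and the BRAF value was -0.12 (adjusted p = 0.547) without on replicate 1.

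Itga3, the α subunit of the laminin receptor α3β1, rose in both tissues, and its log2 fold change in COL BRAF less that in SI BRAF was -0.09 ± 0.22 (adjusted p = 0.897). In COL BRAF it went from 77.7 and 79.7 CPM to 177 and 155 CPM (1.08 ± 0.14, adjusted p = 0.000318), and in COL BRAFp53 from 73.0 and 80.2 CPM to 148 and 132 CPM (0.87 ± 0.14, adjusted p = 0.00135). In SI BRAF it went from 94.0 and 90.7 CPM to 180 and 223 CPM (1.12 ± 0.16, adjusted p = 0.000142), and without on replicate 1 the log2 fold change was 1.29 (adjusted p = 7.73e-05). The groups did not overlap in these 3 cultures. In SI BRAFp53 it went from 111 and 91.0 CPM to 140.0 and 186 CPM (0.69 ± 0.16, adjusted p = 0.0115), and the call was lost without on replicate 2 (0.48, adjusted p = 0.157) and without off replicate 2 (0.57, adjusted p = 0.116).

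Itga2, the α subunit of the collagen receptor α2β1, rose in all 4 cultures with the Braf allele, from a level that differed widely between COL cultures. In COL BRAF it went from 37.5 and 38.0 CPM to 65.8 and 58.5 CPM (0.72 ± 0.17, adjusted p = 0.00936). COL BRAFp53 went from 57.1 and 48.6 CPM to 116 and 110.1 CPM (1.10 ± 0.17, adjusted p = 0.00101). The off libraries of COL p53 held 106 and 89.8 CPM, above both on libraries of COL BRAF. In SI BRAF it went from 13.1 and 17.9 CPM to 27.4 and 26.8 CPM (0.80 ± 0.16, adjusted p = 0.00189), and in SI BRAFp53 from 17.4 and 14.8 CPM to 24.9 and 24.8 CPM (0.63 ± 0.16, adjusted p = 0.0221). The COL BRAF call was lost without on replicate 1 (0.62, adjusted p = 0.0808), without off replicate 1 (0.71, adjusted p = 0.0584) and without off replicate 2 (0.73, adjusted p = 0.0529). The SI BRAFp53 call was lost without on replicate 1 (0.63, adjusted p = 0.0835), on replicate 2 (0.63, adjusted p = 0.106) or off replicate 2 (0.52, adjusted p = 0.178), and the SI BRAF value without on replicate 1 was 0.81 (adjusted p = 0.00545).

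Itgb1, the β subunit shared by α2, α3, α5 and αv and able to pair with α6, had the smallest log2 fold change of the 7 members called in COL BRAF. It went from 135 and 152 CPM to 213 and 185 CPM there (0.47 ± 0.12, adjusted p = 0.0146), a call lost without on replicate 1 (0.35, adjusted p = 0.15) or off replicate 1 (0.39, adjusted p = 0.129). In COL BRAFp53, SI BRAF and SI BRAFp53 its log2 fold change was 0.34, 0.30 and 0.29, with adjusted p of 0.0645, 0.0508 and 0.109. Both on libraries lay above both off libraries in each of the 3 cultures, although the test was not passed. Some alternatives put it past the threshold. In SI BRAF these were RLE size factors (adjusted p = 0.0335), DESeq2 (0.0129), limma-voom (0.0392) and a minimum of 10 counts in every library (0.0355), and without on replicate 1 the value was 0.34 (adjusted p = 0.0672). In COL BRAFp53 they were DESeq2 (adjusted p = 0.0215), limma-voom (0.0461) and the 10-count minimum (0.0464), and in SI BRAFp53 DESeq2 (0.0458).

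**Figure D2:**
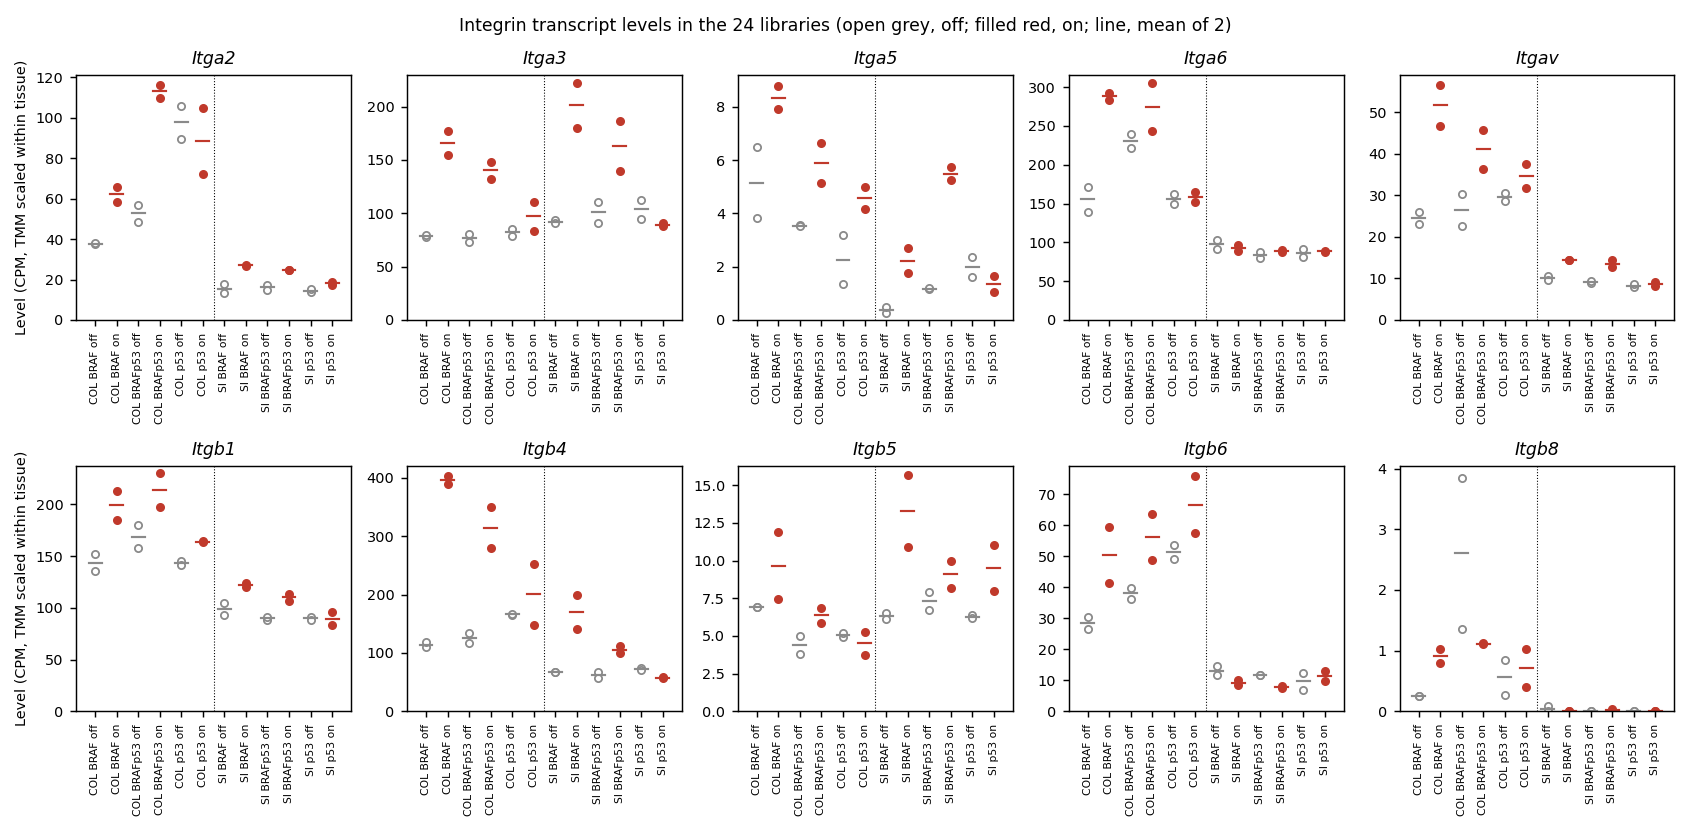
CPM of each integrin transcript (y axis, from 0, scaled within a tissue) in each library, by group. Open points are off and filled points on libraries, and a line marks the mean of 2. Itga3 and Itgb4 are above off in both on libraries of each culture with the Braf allele, the 12 SI values of Itga6 lie between 79.6 and 103 CPM, and Itgb8 is close to 0 in SI.

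Itgav, the α subunit shared by the αv integrins, went from 23.0 and 26.0 CPM to 56.6 and 46.8 CPM in COL BRAF (1.08 ± 0.18, adjusted p = 0.00138). In COL BRAFp53 it went from 22.6 and 30.3 CPM to 45.8 and 36.3 CPM (0.63 ± 0.18, adjusted p = 0.0275). Its level was lower in SI, where it went from 10.6 and 9.63 CPM to 14.3 and 14.5 CPM in BRAF (0.51 ± 0.15, adjusted p = 0.02) and from 8.85 and 9.34 CPM to 12.7 and 14.4 CPM in BRAFp53 (0.57 ± 0.15, adjusted p = 0.0264). The groups did not overlap in any of the 4 cultures, but outside COL BRAF the call depended on single libraries. In COL BRAFp53 it was lost without on replicate 1 (0.48, adjusted p = 0.183) and off replicate 1 (0.44, adjusted p = 0.171). In SI BRAF it was lost without on replicate 2 (0.50, adjusted p = 0.0808) and off replicate 2 (0.44, adjusted p = 0.138), and kept without on replicate 1 (0.54, adjusted p = 0.044). In SI BRAFp53 it was lost without on replicate 1 (0.66, adjusted p = 0.0516), on replicate 2 (0.49, adjusted p = 0.215), off replicate 1 (0.53, adjusted p = 0.158) or off replicate 2 (0.62, adjusted p = 0.103).

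Itga5, the α subunit of the fibronectin receptor α5β1, was the member with the largest log2 fold change called, and it was called in SI alone. In SI BRAF it went from 0.274 and 0.470 CPM (13 and 29 counts) to 2.68 and 1.76 CPM (134 and 68 counts), a log2 fold change of 2.56 ± 0.39 (adjusted p = 0.00029), and 2.23 (adjusted p = 0.00134) without on replicate 1. In SI BRAFp53 it went from 1.15 and 1.19 CPM to 5.74 and 5.24 CPM (2.23 ± 0.36, adjusted p = 0.00128). The groups were apart in both, although the off level of SI p53, 2.37 and 1.61 CPM, reached that of SI BRAF on. In COL it did not pass the test, with 6.48 and 3.83 CPM off and 7.91 and 8.79 CPM on in BRAF (0.69 ± 0.36, adjusted p = 0.216). The COL BRAFp53 libraries held 3.57 and 3.52 CPM off and 5.14 and 6.64 CPM on (0.73 ± 0.37, adjusted p = 0.199).

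The β subunits that pair with αv behaved differently from each other. Itgb5, of αvβ5, a vitronectin receptor, went from 6.56 and 6.09 CPM to 10.9 and 15.7 CPM in SI BRAF (1.07 ± 0.22, adjusted p = 0.00231), and the log2 fold change was 1.33 (adjusted p = 0.000618) without on replicate 1. The test was not passed in COL BRAF (0.49 ± 0.26), COL BRAFp53 (0.53 ± 0.27) or SI BRAFp53 (0.31 ± 0.22), with adjusted p of 0.233, 0.203 and 0.441. Itgb6, of αvβ6, which also activates TGFβ, went from 26.5 and 30.6 CPM to 59.4 and 41.4 CPM in COL BRAF (0.82 ± 0.20, adjusted p = 0.0113). That call was lost without on replicate 1 (0.52, adjusted p = 0.137) or off replicate 1 (0.72, adjusted p = 0.0887). COL BRAFp53 organoids were at 36.4 and 40.0 CPM off and 63.6 and 48.9 CPM on (0.56 ± 0.19, adjusted p = 0.0672), and it was called there without a filter on low counts (adjusted p = 0.00285), with the 10-count minimum (0.0419), with DESeq2 (0.0202) and without on replicate 2 (0.74, adjusted p = 0.0475). In SI both on libraries of BRAF (10.2 and 8.36 CPM) and of BRAFp53 (7.63 and 8.07 CPM) lay below both off libraries (11.6 and 14.7 CPM, and 11.6 and 11.8 CPM), a position held by 32.9% and 28.2% of all genes. Neither passed the test (-0.50 ± 0.25, adjusted p = 0.145, and -0.57 ± 0.25, adjusted p = 0.168), and without SI BRAF on replicate 1 the BRAF value was -0.63 (adjusted p = 0.152). The fit of the 4 libraries of SI BRAFp53 alone called Itgb6 lower (-0.56, adjusted p = 0.0488).

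Itgb8, of αvβ8, was the rarest member and did not pass the test in any culture. In COL BRAF it had 16 and 14 counts off and 48 and 48 counts on (1.88 ± 0.71, adjusted p = 0.0848). In COL BRAFp53 it had 87 and 252 counts off and 81 and 67 counts on (-1.22 ± 0.65, adjusted p = 0.229), so that 1 off library held more than any other. DESeq2 (adjusted p = 0.0461), a minimum of 10 counts in every library (0.0465) and no filter on low counts (0.0296) each put COL BRAF past the threshold. The 12 SI libraries together held 6 counts.

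Induction of p53R172H alone passed the test for no member. In COL p53, where 0.142% of all genes were called, 0 of 10 passed, and the median log2 fold change was 0.24 against 0.00 for all genes. Itga5 had the largest value, from 1.33 and 3.2 CPM to 4.99 and 4.18 CPM (1.01 ± 0.37, adjusted p = 0.442), and was the only member with an unadjusted p under 0.05 (0.0187). The 2 on libraries of this group differed from each other, with 253 and 148 CPM of Itgb4 around off values of 166 and 166 CPM. In SI p53 edgeR called 0% of all genes and 0 of 9 members, 873 genes had an unadjusted p under 0.05, and DESeq2 and limma-voom called 55 genes and 1 gene, no member among them. Of the members, Itgb5 (0.60 ± 0.22, unadjusted p = 0.0157) and Itgb4 (-0.34 ± 0.15, unadjusted p = 0.0405) were under that unadjusted level. Itgb4 there went from 73.9 and 71.6 CPM to 58.9 and 56.3 CPM.

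The BRAFp53 response was set against the BRAF response within each tissue, to see whether the added p53 allele came with a different integrin response. No member differed in COL (0 of 10, with 0.907% of all genes called) or in SI (0 of 9, with 8.2%). In COL the difference was -0.64 ± 0.19 for Itga6 (adjusted p = 0.102, unadjusted p = 0.00478) and -0.47 ± 0.28 for Itgb4 (adjusted p = 0.394). DESeq2 and the fit without a filter on low counts each called 2 members lower there, Itga6 (adjusted p = 0.0233 and 0.0271) and Itgb8 (adjusted p = 0.0323 and 0.0191). These fits called 7.2% and 4.31% of all genes there. In SI the difference was -0.58 ± 0.21 for Itgb4 (adjusted p = 0.114, unadjusted p = 0.0156). DESeq2 (-0.60, adjusted p = 0.0397, with 12.4% of all genes called) and the fit without a filter (-0.57, adjusted p = 0.0438, with 7.6%) called this difference. Without SI BRAF on replicate 1 it became -0.82 (adjusted p = 0.00777), and Itgb5 was then also called (-1.01, adjusted p = 0.0471), against -0.76 ± 0.31 (adjusted p = 0.158) with it. The SI BRAF and SI BRAFp53 cultures also differed in Xist and Ddx3y, as given above.

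Between the tissues, the BRAF response differed for 3 of 10 members, where 10.7% of all genes did. The log2 fold change of Itga6 was higher in COL (0.89) than in SI (-0.08, not called), with a difference of 0.93 ± 0.17 (adjusted p = 0.00113), a call kept in all 14 alternatives, among them that without SI BRAF on replicate 1 (0.98, adjusted p = 0.00226). That of Itgb6 was also higher in COL (difference 1.28 ± 0.34, adjusted p = 0.0179), with 0.82 in COL and -0.50, not called, in SI, and the difference was 1.42 (adjusted p = 0.027) without that library. For Itga5 the log2 fold change was lower in COL (0.69, not called) than in SI (2.56), with a difference of -1.91 ± 0.56 (adjusted p = 0.0345). The calls for Itgb6 and Itga5 rested on single libraries. For Itgb6 the call was lost without COL BRAF on replicate 1 (0.99, adjusted p = 0.101), COL BRAF off replicate 1 (1.19, adjusted p = 0.074), SI BRAF on replicate 2 (1.17, adjusted p = 0.0723) or SI BRAF off replicate 2 (1.11, adjusted p = 0.0928). For Itga5 the difference ranged from -2.35 to -1.46 with adjusted p up to 0.165 when 1 library was left out, and the call was lost without 6 of the 8 libraries, SI BRAF on replicate 1 among them (-1.58, adjusted p = 0.136). For the BRAFp53 response 0 of 10 members differed (3.52% of all genes), with 1.10 ± 0.34 for Itgb6 (adjusted p = 0.0788), and for the p53 response 0 of 10 (0.117% of all genes).

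To compare subunits with each other, CPM was divided by the length of all annotated exons of each gene in kilobases, not by that of the transcript expressed. The order of subunits depends on these lengths. In CPM, SI BRAF off held 97.3 of Itga6 and 92.3 of Itga3, and COL p53 off held 166 of Itgb4 and 143 of Itgb1. On the scale per kilobase Itga3 and Itga6 made up most α transcripts in every group. Itga3 held 51.6% to 61.8% of the α transcripts in the SI off libraries and 25.5% to 36.1% in the COL off libraries. In SI BRAF its share was 55.8% and 51.6% off and 65.7% and 71.9% on, whereas that of Itga6 was 34.4% and 37.1% off and 22.3% and 18.0% on. In SI BRAFp53 the states overlapped for Itga3 (61.2% and 55.2% off, 61.1% and 67.2% on), and Itga6 was at 27.8% and 33.8% off and 24.3% and 20.6% on. In COL BRAFp53 the share of Itga6 was 52.9% and 50.2% off and 41.5% and 38.4% on. In COL BRAF the α shares moved less, with 40.8% and 45.9% of Itga6 off and 40.8% and 43.1% on.

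**Figure D3:**
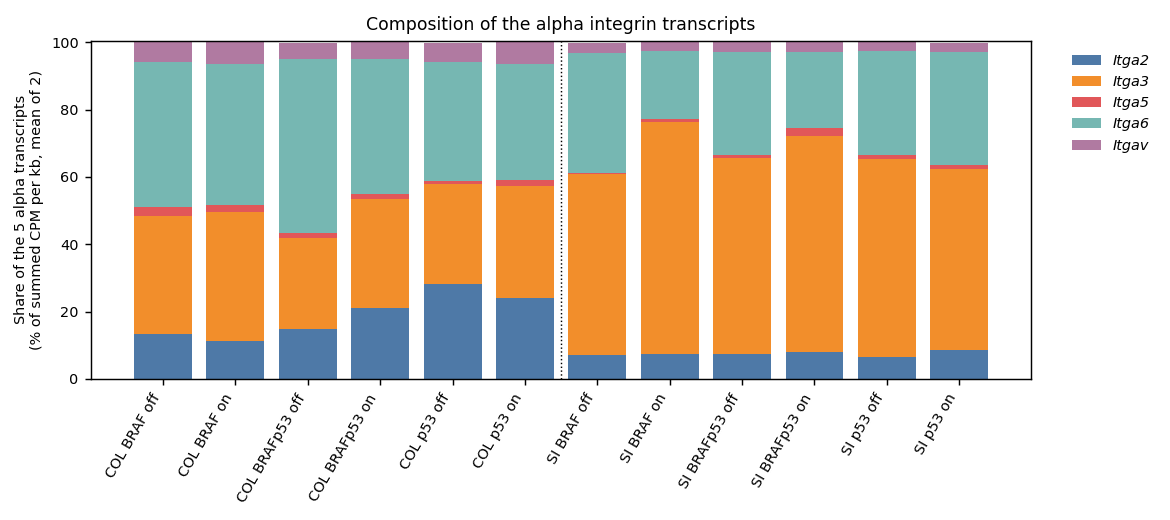
Share of each of the 5 α transcripts (y axis, % of their summed CPM per kb, mean of 2 libraries) in each group. Itga3 is the larger part in SI and Itga6 in COL BRAF and BRAFp53 organoids, and the Itga6 part is smaller on than off in COL BRAFp53 (52.9% and 50.2% off, 41.5% and 38.4% on) in SI BRAF (34.4% and 37.1% off, 22.3% and 18.0% on) and, by less, in SI BRAFp53 (27.8% and 33.8% off, 24.3% and 20.6% on).

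Among the β transcripts per kilobase, Itgb1 was the largest part in every off group and Itgb4 the second. In COL BRAF the share of Itgb1 was 60.7% and 61.7% off and 43.7% and 40.9% on, and that of Itgb4 was 28.8% and 27.9% off and 46.4% and 51.9% on, so that Itgb4 passed Itgb1. Shares of Itgb4 were 27.0% and 27.2% off and 42.6% and 41.1% on in COL BRAFp53, and 24.8% and 26.6% off and 37.2% and 44.3% on in SI BRAF. The change was smaller in SI BRAFp53, with 27.4% and 24.1% off and 32.1% and 33.8% on. The ratio of Itgb4 to Itga6 per kilobase was 1.02 and 0.884 off and 1.71 and 1.83 on in COL BRAF, and 0.627 and 0.781 off and 1.48 and 1.48 on in COL BRAFp53. It was 0.949 and 0.844 off and 1.87 and 2.91 on in SI BRAF, and 1.09 and 0.844 off and 1.45 and 1.59 on in SI BRAFp53. In each of these cultures the β4 subunit transcript was thus higher relative to its partner in both on libraries, while in COL p53 (1.32 and 1.43 off, 2.14 and 1.16 on) the states overlapped and in SI p53 (1.05 and 1.14 off, 0.862 and 0.811 on) the on values were lower. These shares and ratios were not tested.

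Off organoids of the tissues also differed, and most members were higher in COL. With the 2 off libraries of a culture summed, so that 3 COL cultures were set against 3 SI cultures, 7 of 10 members were called higher and 1 lower in COL, where 29.6% of all genes were called, 17% higher and 12.6% lower. Itgav was at 23.1, 25.2 and 28.4 CPM in COL and 9.44, 10.3 and 11.4 CPM in SI (log2 difference 1.30 ± 0.16, adjusted p = 0.00261). Itgb6 was at 26.9, 36.4 and 49.4 CPM in COL and 11.1, 13.3 and 15.1 CPM in SI (1.52 ± 0.25, adjusted p = 0.00602), and Itga2 at 35.8, 50.3 and 93.9 CPM in COL and 16.5, 17.9 and 18.3 CPM in SI (1.77 ± 0.34, adjusted p = 0.00984). The cultures of the tissues did not overlap for any of these 3 members, and the share of all genes without overlap was not counted. Itga6 (0.76 ± 0.19, adjusted p = 0.023), Itgb4 (0.75 ± 0.17, adjusted p = 0.0178) and Itgb1 (0.46 ± 0.12, adjusted p = 0.031) were also higher in COL. Itgb8 had 445 counts in the COL off libraries and 4 in the SI off libraries, all 4 in 1 library of the BRAF culture (adjusted p = 0.0189). Itga3 alone was called lower in COL, at 73.0, 74.5 and 78.8 CPM against 104, 115 and 118 CPM in SI (-0.57 ± 0.11, adjusted p = 0.0106). Itga5 (1.38 ± 0.61, adjusted p = 0.13) and Itgb5 (-0.54 ± 0.23, adjusted p = 0.127) did not pass the test. With genotype as a block, which pairs the COL and SI cultures of the same alleles, 5 members and 19.5% of all genes were called, and Itga6 (adjusted p = 0.0602), Itgb1 (0.0924) and Itgb8 (0.0593) lost their calls. The methods name a single donor mouse for each set of alleles, which would pair these cultures. By Ddx3y and Xist, however, the COL and SI cultures of p53 and of BRAFp53 differed in sex. Those of BRAF differed in the Y-linked Eif2s3y, with at most 0.128 CPM in COL and 55.4 to 71.2 CPM in SI. The block is therefore given as an alternative. Markers differed between off COL and off SI as well. Of 10 epithelial markers 3 were called higher in COL (Cdh1, Krt18 and Cdx2, median of the list 0.40 against 0.08 for all genes), with sums of 12070 to 22410 CPM in COL and 9338 to 10900 CPM in SI. Of the small intestinal markers, 3 of 5 were lower in COL (Lct, Mttp and Rbp2) and Lyz1 was higher (3.01, adjusted p = 0.00949), and their part in the integrin values was not tested.

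Without the COL BRAF culture, which held Gata4, the off comparison called 8 members as well, with 29% of all genes called. Among the 8 were Itga2 (2.03, adjusted p = 0.00539), Itgav (1.35, adjusted p = 0.00436) and Itgb6 (1.69, adjusted p = 0.00467). Without the SI p53 culture or the SI BRAFp53 culture 3 members were called, while the share of all genes called fell to 13.1% and 14.7%. Itga2, Itgav and Itgb6 kept their calls without either, at adjusted p up to 0.0475, 0.0173 and 0.0323. Itga3 lost its call without SI p53 (-0.54, adjusted p = 0.0639) or SI BRAFp53 (-0.57, adjusted p = 0.0559), as did Itga6 (0.73, adjusted p = 0.0967, and 0.71, adjusted p = 0.0955), Itgb4 (0.80, adjusted p = 0.0603, and 0.69, adjusted p = 0.0832), Itgb1 (0.43, adjusted p = 0.141, and 0.43, adjusted p = 0.137) and Itgb8 (adjusted p = 0.0692 and 0.0666). Without SI BRAF the calls of Itgb1 (0.49, adjusted p = 0.0735) and Itgb4 (0.73, adjusted p = 0.0568) were lost, and without COL BRAFp53 those of Itgb1 (0.37, adjusted p = 0.0793) and Itgb8 (adjusted p = 0.0578).

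**Figure D4:**
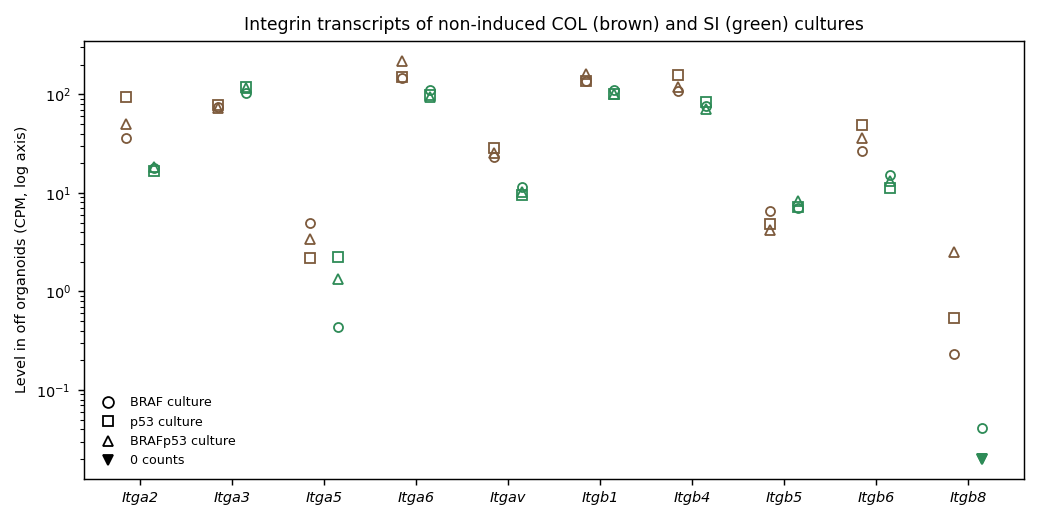
Level of each integrin transcript in off organoids (y axis, CPM on a log axis), with 1 point per donor culture, COL in brown and SI in green, and filled triangles for 0 counts. All 3 COL cultures are above all 3 SI cultures for Itga2, Itga6, Itgav, Itgb1, Itgb4, Itgb6 and Itgb8, and below them for Itga3 and Itgb5. The share of all genes that lay apart in this way was not counted.

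Among 23 ligand genes, Lamb3 and Lama3, chains of laminin bound by α6β4 and α3β1, were called in most cultures with the Braf allele. Of the ligands, 8 of 19 tested rose and 1 fell in COL BRAF, 5 rose and 1 fell in COL BRAFp53, 4 of 10 tested rose in SI BRAF and 5 of 10 in SI BRAFp53. Of all genes, 10.3%, 9.95%, 17.5% and 6.98% were called higher in these comparisons and 9.61%, 7.76%, 14.2% and 4.53% lower, which are also the shares to read the lists that follow against. Lamb3, a laminin β chain, had log2 fold changes of 1.23, 0.84, 1.88 and 1.19 in COL BRAF, COL BRAFp53, SI BRAF and SI BRAFp53 and passed the test in each. Lama3, a laminin α chain, rose in COL BRAF (2.49), COL BRAFp53 (1.47) and SI BRAF (4.20), where its level in SI BRAF was 0.105 and 0.357 CPM off and 3.13 and 5.65 CPM on, and it did not pass the test in SI BRAFp53 (2.89, adjusted p = 0.074). Nid1, nidogen, which links laminin to collagen IV, was called in all 4, for instance from 5.60 and 5.67 CPM to 48.1 and 48.3 CPM in COL BRAF. Without SI BRAF on replicate 1, where 15.4% of all genes were called higher and 14.3% lower, 4 of 13 ligands rose and 1 fell in SI BRAF, with 2.15 for Lamb3, 4.59 for Lama3 and 6.93 for Nid1 (adjusted p = 1.96e-06, 0.00425 and 1.69e-08).

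Most genes of a list of hemidesmosome partners of β4 rose as well. Of the 6 genes of that list, 5 of 6 rose in COL BRAF and 4 of 6 in COL BRAFp53, and 4 of 5 tested rose in each SI culture with the Braf allele. Plec, plectin, which couples β4 to keratin filaments, went from 261 and 288 CPM to 967 and 993 CPM in COL BRAF (1.84 ± 0.18, adjusted p = 5.38e-05) and from 161 and 176 CPM to 489 and 765 CPM in SI BRAF (1.89 ± 0.18, adjusted p = 5.1e-06). Its log2 fold change was 1.23 in COL BRAFp53 and 1.19 in SI BRAFp53. The simple epithelial keratin Krt8 rose in all 4 (1.36, 1.48, 0.83 and 0.59), and its partner Krt18 in all but SI BRAF (0.11, adjusted p = 0.365). Dst, the other plakin, rose in COL BRAF (1.58) and both SI cultures (1.17 and 0.73), with 0.14 ± 0.22 in COL BRAFp53. Counts per gene do not separate the isoforms of Dst. Cd151, a tetraspanin that binds α3β1 and α6 integrins, rose in COL BRAF (0.56), COL BRAFp53 (0.61) and SI BRAF (0.76), with 0.86 in SI BRAFp53 (adjusted p = 0.0587). Col17a1, the collagen of the skin type of hemidesmosome, had at most 0.535 CPM in any library and was not called. Without SI BRAF on replicate 1, 3 of 5 rose in SI BRAF, with 2.20 for Plec (adjusted p = 1.44e-07), 0.96 for Krt8 (adjusted p = 3.31e-06) and 1.54 for Dst (adjusted p = 2.05e-05), and Cd151 lost its call (0.41, adjusted p = 0.319). Krt8 and Krt18 are also among the 10 epithelial markers.

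**Figure D5:**
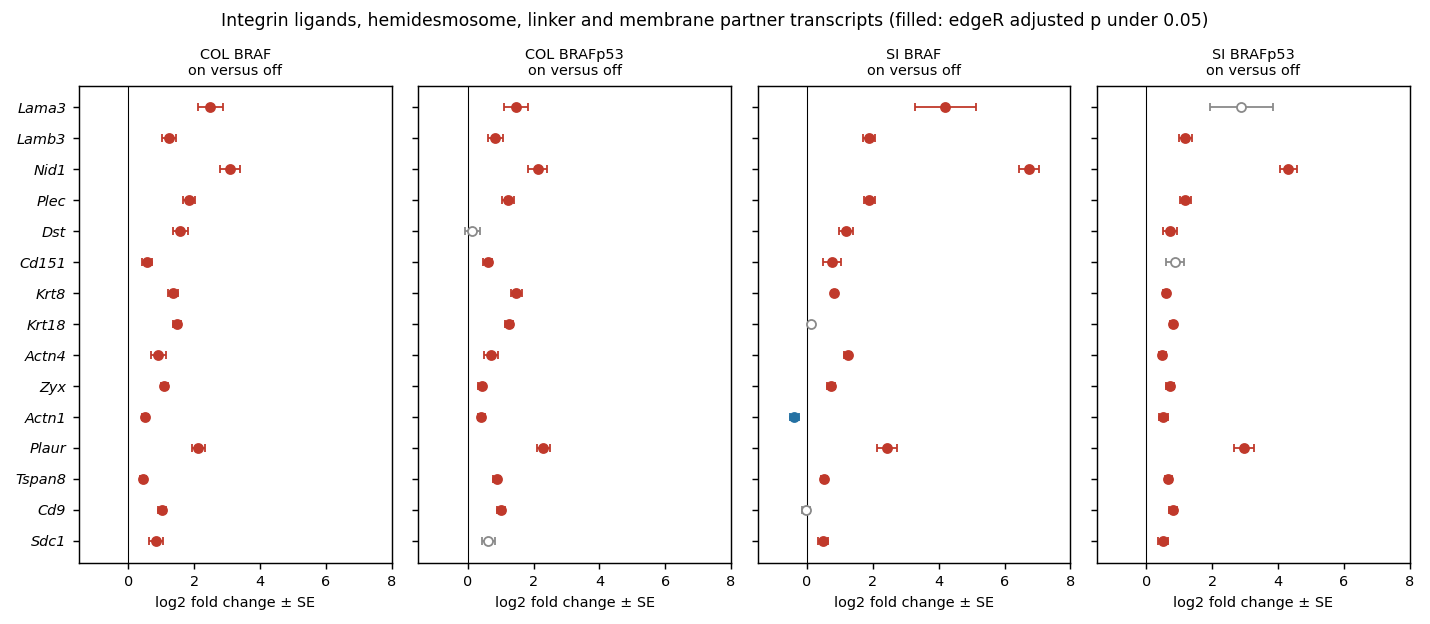
Log2 fold change (x axis, with SE) of ligand, hemidesmosome, linker and membrane partner transcripts in on against off organoids of the cultures with the Braf allele, 2 libraries per state. Filled points passed an adjusted p under 0.05. Lamb3, Nid1, Plec, Krt8, Actn4, Zyx, Plaur and Tspan8 are filled to the right of 0 in all 4 panels, and Actn1 is filled to the left of 0 in SI BRAF.

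Of the 26 genes that link integrins to actin, 10 of 24 tested rose and 1 fell in COL BRAF, 8 of 24 rose and 1 fell in COL BRAFp53, 7 of 22 rose and 4 fell in SI BRAF, and 7 of 22 rose and 1 fell in SI BRAFp53. Actn4 (α-actinin 4) and Zyx (zyxin) rose in all 4, with log2 fold changes of 0.92, 0.72, 1.24 and 0.48 for Actn4 in COL BRAF, COL BRAFp53, SI BRAF and SI BRAFp53. Actn1 rose in COL BRAF (0.49), COL BRAFp53 (0.42) and SI BRAFp53 (0.51) and fell in SI BRAF (-0.39 ± 0.14, adjusted p = 0.045). Of the inhibitors of integrin activation, none of 4 tested rose, and Krit1 fell in COL BRAFp53 (-0.52 ± 0.13, adjusted p = 0.0208). Of the 13 membrane partners, 7 of 13 rose and 1 fell in COL BRAF, 8 of 13 rose in COL BRAFp53, 6 of 12 rose and 1 fell in SI BRAF, and 4 of 12 rose and 1 fell in SI BRAFp53. Plaur, the urokinase receptor, which binds integrins laterally, went from 47.5 and 48.7 CPM to 228 and 191 CPM in COL BRAF (2.12 ± 0.20, adjusted p = 3.99e-05) and from 7.23 and 6.16 CPM to 25.7 and 46.6 CPM in SI BRAF (2.43 ± 0.30, adjusted p = 4.5e-05). Tspan8, a tetraspanin, rose in all 4 (0.45, 0.88, 0.52 and 0.66). Among the genes that fell, singled out after their values were seen, were Lamb2 in both COL cultures with the Braf allele, Tns3 in these and in SI BRAF (-0.56, adjusted p = 0.00817), and Sdc4 in COL BRAF and both SI ones. When SI BRAF on replicate 1 was left out, 10 of 23 linkers rose and 3 fell and 5 of 12 membrane partners rose and 1 fell in SI BRAF, with -0.48 for Actn1 (adjusted p = 0.0322), -0.59 for Tns3 (adjusted p = 0.0233), -0.83 for Sdc4 (adjusted p = 0.000108), 1.36 for Actn4 (adjusted p = 1.42e-06), 0.88 for Zyx (adjusted p = 0.000206), 0.58 for Tspan8 (adjusted p = 0.0019) and 2.82 for Plaur (adjusted p = 4.54e-06). No ligand, linker, inhibitor, hemidesmosome or membrane partner gene was called in COL p53 or SI p53.

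Of the 17 integrin subunit genes outside the 10 members, few were called. In COL BRAF 0 of 13 tested rose and Itga1, of the collagen receptor α1β1, fell (-0.87 ± 0.26, adjusted p = 0.036), and in COL BRAFp53 0 of 13 were called. In SI BRAF 2 of 11 rose, against 17.5% of all genes, Itga7, of a laminin receptor best known in muscle (2.85 ± 0.52, adjusted p = 0.00106), and Itgam, of a leukocyte integrin (1.57 ± 0.26, adjusted p = 0.000531). Itgam also rose in SI BRAFp53 (0.99 ± 0.27, adjusted p = 0.0312). In SI BRAF it was at 5.14 and 6.77 CPM off and 14.6 and 20.8 CPM on, whereas Itgb2, the β subunit it pairs with in leukocytes, had too few counts to be tested. The values without SI BRAF on replicate 1 were 3.20 for Itga7 and 1.82 for Itgam (adjusted p = 0.000617 and 0.000247), and Itga1 was then called lower (-2.14, adjusted p = 0.0104). Of the 6 immune markers, the 1 tested in SI moved with Itgam, Csf1r, the receptor of a macrophage growth factor, which went from 1.01 and 0.0324 CPM to 2.60 and 4.34 CPM in SI BRAF (2.79 ± 0.88, adjusted p = 0.0274, and 3.14, adjusted p = 0.0218, without on replicate 1) and from 0.407 and 1.58 CPM to 7.83 and 9.82 CPM in SI BRAFp53 (3.15 ± 0.83, adjusted p = 0.0271). The other 5, the pan-leukocyte marker Ptprc among them, had too few counts to be tested there, and the part of such cells in the Itgam result was not tested. Of the 5 endothelial markers, 1 of 2 tested was called higher in SI BRAF, against 17.5% of all genes. It was Tek, at most 0.697 CPM in that culture, and its call was lost without on replicate 1. The endothelial list summed to 0.253 and 0.0648 CPM off and 1.54 and 1.01 CPM on there.

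The genes whose levels ran most like those of the 4 members called in all cultures with the Braf allele were listed by the mean of the Pearson correlations of log2 CPM over the 12 libraries of each tissue, among 8287 genes. For Itgb4 they included Plec (0.97 in COL, 0.98 in SI) and Myo18a (0.96, 0.98). For Itga3 they were Dock5 (0.98, 0.97), Fam214b (0.97, 0.96) and Itgb4 itself (0.97, 0.96). For Itga2 they were Nsf (0.97, 0.90), Pcsk7 (0.94, 0.92) and Stam2 (0.95, 0.90), and for Itgav Ick (0.97, 0.94), S100a14 (0.94, 0.97) and Pgap1 (0.95, 0.94). The libraries share genotype, induction and culture, so these values describe the libraries and were not tested.

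The promoters of 3 members that rose together in all 4 cultures with the Braf allele are shown as the 250 bases before the RefSeq transcription start (GRCm38.p6), read 5′ to 3′ on the gene's strand, with matches to the GC box GGGCGG, on either strand, in capitals. They are the window of Itga3 at chr11:95076715-95076964 (minus strand), that of Itga2 at chr13:114932101-114932350 (minus) and that of Itgav at chr2:83724147-83724396 (plus).
Itga3: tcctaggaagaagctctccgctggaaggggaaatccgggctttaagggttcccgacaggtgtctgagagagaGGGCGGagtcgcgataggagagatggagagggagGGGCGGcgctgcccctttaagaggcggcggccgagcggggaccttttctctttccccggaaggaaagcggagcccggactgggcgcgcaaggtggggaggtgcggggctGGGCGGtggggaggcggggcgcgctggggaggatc
Itga2: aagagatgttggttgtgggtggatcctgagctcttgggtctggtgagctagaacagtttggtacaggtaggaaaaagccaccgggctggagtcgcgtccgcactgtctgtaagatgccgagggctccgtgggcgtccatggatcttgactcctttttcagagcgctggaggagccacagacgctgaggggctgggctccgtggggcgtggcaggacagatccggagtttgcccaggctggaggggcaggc
Itgav: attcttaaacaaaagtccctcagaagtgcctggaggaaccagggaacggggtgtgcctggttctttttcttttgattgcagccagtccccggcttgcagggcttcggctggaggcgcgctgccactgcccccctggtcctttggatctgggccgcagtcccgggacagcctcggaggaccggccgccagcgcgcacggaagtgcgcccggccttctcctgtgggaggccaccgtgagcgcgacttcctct
The Itga3 window held 3 matches to GGGCGG and those of Itga2 and Itgav none. Entries were found for 8 of 10 members, with 10 promoters in all, and for Itga6 and Itgb4 none was found. Searched on both strands, the AP-1 motif TGANTCA was in 0 of these 10 promoters and in 6.75% of 32851 promoters, the TEAD motif GGAATG in 1 (Itgb1) and in 12.6%, and GGGCGG in 5 and in 32.7%. These are matches of letters within 250 bases and describe no binding.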

How the data were processed

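Gene counts of 24 libraries, 2 in each of 12 groups, were analysed. Per the labels and the study's methods, the authors sequenced paired-end libraries, trimmed reads with Trimmomatic 0.36 and aligned them to mm10 with STAR 2.5.2b (the submitters' processing notes also name mm9), and they deposited unnormalized read counts for each gene and library. The annotation release and strand setting are not given in the sources used here. Of 45706 gene identifiers, 45143 were matched to GENCODE M21, which also gave positions and exon lengths, and 563 were not and stayed in the fits. The members and gene lists were chosen with earlier results of these data known.

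Within each tissue, counts were filtered with filterByExpr, scaled by TMM and fitted as 6 group means with glmQLFit and glmQLFTest of edgeR 4.0.16 (R 4.3.3), on 18972 genes in COL and 16856 in SI. A joint fit of all libraries (19673 genes) gave the differences of response between tissues, and off organoids were compared with the 2 off libraries of a culture summed (17789 genes). The threshold was 0.05 for the p adjusted by Benjamini and Hochberg. CPM levels are on the TMM scale, SE is the log2 fold change divided by the root of the F statistic, and a fitted log2 fold change understates changes from counts near 0. The study itself used limma. The procedure was tested on simulated data. The 2 libraries of each of the 12 groups were beyond sampling noise of each other (chi-square over its degrees of freedom, 22.3 to 102), so each counted as 1 sample. Replicate numbers did not pair the samples, since deviations of same-numbered on and off libraries correlated at -0.04 to 0.06. Named partner genes were, per list, the up to 4 called in most of the 4 comparisons with the Braf allele, ties by mean absolute log2 fold change, and any gene of a list of 6 or fewer, and some genes that this rule names are not reported here. Sex markers, antisense genes, Braf and Trp53 were added after values were seen. Alternatives were RLE size factors, no filter, DESeq2 1.42.0, a minimum of 10 counts per library, a replicate block, limma-voom (limma 3.58.1), each library or culture left out, and a fit of the 4 libraries of a culture alone. Leaving SI BRAF on replicate 1 out of the partner and marker lists was chosen after seeing the data.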

Additional observations from a re-analysis of the deposited data

Results flagged for a closer look

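The response to BRAFV600E differed between COL and SI, by the test of the difference itself in the joint fit, for Itga6 (0.93, edgeR adjusted p = 0.00113), Itgb6 (1.28, adjusted p = 0.0179) and Itga5 (-1.91, adjusted p = 0.0345). The values are the log2 fold change in COL less that in SI. Without SI BRAF on replicate 1 these differences were 0.98 (adjusted p = 0.00226), 1.42 (adjusted p = 0.027) and -1.58 (adjusted p = 0.136). Tissue cannot be told apart from 4-HT dose, day of RNA isolation and medium, and whether these have a part in the differences was not tested.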

How the results depend on the processing

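Alternative values were counted for all members in the on versus off comparisons with the Braf allele and between off tissues. Elsewhere they were counted only for members with an edgeR unadjusted p under 0.05 or called by an alternative, and for Itga3 and Itgb4 where given above. Of these 807 values, 716 kept direction and side of the threshold, 59 lost a call and 29 gained one. The other 3, none of them called, changed sign. With 1 library left out these were Itga6 in SI BRAF (-0.16 to 0.009) and Itga3 in the BRAF response of COL less SI (-0.25 to 0.088). Of 148 alternative counts of members called, 128 stayed within 1.5 times. With no filter on low counts, 2 members differed between the BRAFp53 and BRAF responses in COL (4.31% of all genes) and 1 in SI (7.6%). In that fit 2 differed between COL and SI for BRAFp53 (4.87%). With DESeq2 these counts were 2, 1 and 1 (7.2%, 12.4% and 7.9% of all genes). With at least 10 counts in every library the last was 1 (8.51%). With a replicate block, the COL BRAFp53 and SI BRAFp53 calls of Itgav were lost (adjusted p = 0.0689 and 0.0583). In that fit 1 member differed between COL and SI for BRAF (9.06% of all genes), Itgb6 and Itga5 losing their calls (adjusted p = 0.0673 and 0.0976). Itga5 lost that call with limma-voom too (adjusted p = 0.106). Itgav also lost its call without a filter in SI BRAF and SI BRAFp53 (adjusted p = 0.0673 and 0.0529), and in the fit of 4 libraries alone in COL BRAFp53 and SI BRAF (adjusted p = 0.0635 and 0.0681). The replicate numbers share no stated source, so the block is given as an alternative only. With genotype as a block, 5 members differed between off COL and off SI (19.5% of all genes). Itga6, Itgb1 and Itgb8 were lost there (adjusted p = 0.0602, 0.0924 and 0.0593), and without a filter Itgb1 was lost (adjusted p = 0.0627). The cause of these changes was not tested. When 1 library was left out, the number of members called was 4 to 7 in COL BRAF, 3 to 5 in COL BRAFp53, 5 to 6 in SI BRAF, 1 to 4 in SI BRAFp53, 0 to 2 for the SI BRAFp53 less BRAF response, 1 to 3 for the BRAF response in COL less that in SI, 3 to 8 for off COL against off SI with 1 culture left out, and 0 to 0 for the others. With 1 library left in a group, that library was assumed to vary like the other groups. Compared with the fits of all libraries, the share of all genes called fell in all 4 cultures with the Braf allele. It also fell for the BRAF response in COL less that in SI, and for off COL against off SI. For the SI BRAFp53 less BRAF response it rose without SI BRAF on replicate 1 and fell in the other fits. These ranges therefore do not describe the members alone. Itga3 and Itgb4 kept their calls in all alternatives in COL BRAF, COL BRAFp53 and SI BRAF, as did Itga5 in both SI cultures with the Braf allele.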
